A study of Mus musculus with 4 samples.

Results

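Small peritoneal macrophages (SPMs), and macrophages that arise from blood monocytes more widely, are told apart from large peritoneal macrophages (LPMs) by a set of receptors, lectins and secreted proteins. Chromatin accessibility was examined at 10 such genes: the receptors Mrc1, Cd163, Lyve1 and Folr2, the C-type lectins Clec10a, Cd209a and Cd209d, the secreted protein Retnla, and the immunoglobulin family members Fcrls and Cd226. Merging the overlapping peaks (by 1 bp or more) of 4 ATAC-seq libraries gave 70744 regions. A region belonged to a gene when the transcription start site (TSS) nearest to its midpoint was that gene's, or when it overlapped the gene body, with TSSs taken from curated RefSeq transcripts of 24963 genes. By this rule 63 of the 70744 regions belonged to the 10 genes, from 16 at Mrc1 down to 1 each at Cd209a and Cd209d.

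The libraries were made from LPMs of C57BL/6 mice aged 9 weeks, with 40000 cells and 2 libraries per genotype. Rxrab fl/fl mice (replicates 1 and 3, here the controls, littermates) carry floxed alleles of Rxra and Rxrb and no Cre, and LysMCre+ Rxrab fl/fl mice (replicates 1 and 2, here Cre+) carry the same floxed alleles with Cre under the control of the LysM gene, which removes both receptors in myeloid cells at large and not in LPMs alone. The LPM gate was CD45+ B220- CD11b+ CD115+ F4/80hi MHCIIlo, which leaves out F4/80lo MHCIIhi SPMs, and all libraries carry library batch 1. The study's reporting summary says that samples which did not cluster with their group were left out, so the spread within a genotype may be smaller here than among all samples made.

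In the serous cavities LPMs are long-lived, carry high F4/80 and depend on the transcription factor GATA6, whereas SPMs are fewer, carry MHC class II and are replaced from blood monocytes. Interleukin-4, through STAT6, raises Retnla, Mrc1, Clec10a and several CD209 lectins in macrophages, and Lyve1, Folr2, Cd163 and Mrc1 are also carried by resident macrophages of many other tissues, so the 10 genes do not mark a single cell type. Retinoid X receptors are nuclear receptors that bind DNA mainly as partners of other nuclear receptors, at pairs of the half-site AGGTCA.

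Control replicate 3 stood apart from the other libraries. It had 16097 peaks, against 38048 in control replicate 1 and 65421 and 55581 in the Cre+ libraries. Among regions that all 4 libraries share, the median fold enrichment was 7.52 in this library, against 14.5 in control replicate 1 and 15.1 and 12.0 in Cre+ LPMs. Fold enrichment is the ratio of the tag pileup at a peak's summit to the local background. The lowest background, which stands for depth, was 1.97 and 1.06 tags per 200 bp in controls and 1.33 and 1.08 in Cre+ LPMs, so replicate 3 was about as deep as Cre+ replicate 2. At those backgrounds a peak was called from a fold enrichment of 3.03 and 3.40 in controls and of 3.01 and 3.37 in Cre+ LPMs. Results are given with and without replicate 3 where it bears on them, and the part of library quality in the results was not tested.

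The cells carried accessible LPM genes. The Gata6 promoter was called in all 4 libraries, with a fold enrichment of 11.3 and 7.61 in controls and of 5.80 and 8.61 in Cre+ LPMs (log2 fold change −0.76, adjusted p = 0.148 from limma). The promoters of 7 of 12 LPM genes (58.3%, against 32.5% of all genes) were called in all 4 libraries, Gata6, Timd4, Icam2 and Adgre1 (which encodes F4/80) among them, whereas Tgfb2 and Prg4 had no promoter call and that of Cxcl13 was called in control replicate 1 alone. The targeted genes came next: the Rxra promoter had 6.43 and 5.77 in controls and 10.4 and 7.27 in Cre+ LPMs (log2 fold change 0.15, adjusted p = 0.762 from limma). At the Rxrb promoter the values were 8.36 and 5.71 against 7.17 and 4.79 (−0.60, adjusted p = 0.150). On the pileup the Rxra promoter passed the threshold (log2 fold change 1.12, adjusted p = 0.0458 from limma). A promoter does not show whether the floxed exons were removed, and the deletion was not analysed here.

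The promoter sequences of the 5 genes whose promoter was called in both Cre+ libraries and in neither control library are shown because these start sites were called in 1 genotype alone. They are the 150 bases before the start site on the gene's own strand, from RefSeq on GRCm38.p6 (the mm10 build), at chr3:87263525-87263674 (minus strand, Fcrls), chr16:48842459-48842608 (plus, Retnla), chr2:14229264-14229413 (plus, Mrc1), chr7:101845332-101845481 (minus, Folr2) and chr8:3878500-3878649 (minus, Cd209d). Capitals mark motif matches: in Retnla, from the 5′ end, a STAT6 motif (TTC and GAA with 4 bases between), a C/EBP motif (TTGCNNAA), and the half-site AGGTCA overlapping a MAF motif (TGCTGAC on the other strand), and in Folr2 an AP-1 motif (TGANTCA).

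Fcrls promoter: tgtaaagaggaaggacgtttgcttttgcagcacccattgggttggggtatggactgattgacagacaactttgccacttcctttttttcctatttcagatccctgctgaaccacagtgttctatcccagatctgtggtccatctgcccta
Retnla promoter: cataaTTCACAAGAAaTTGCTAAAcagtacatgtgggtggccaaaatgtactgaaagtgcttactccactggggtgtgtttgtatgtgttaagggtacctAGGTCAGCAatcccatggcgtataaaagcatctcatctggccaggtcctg
Mrc1 promoter: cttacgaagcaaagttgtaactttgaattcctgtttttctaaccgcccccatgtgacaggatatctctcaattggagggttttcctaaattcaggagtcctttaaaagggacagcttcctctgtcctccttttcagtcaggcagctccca
Folr2 promoter: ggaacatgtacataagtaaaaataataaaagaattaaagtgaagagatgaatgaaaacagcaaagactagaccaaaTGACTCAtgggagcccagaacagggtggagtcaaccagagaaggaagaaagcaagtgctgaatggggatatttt
Cd209d promoter: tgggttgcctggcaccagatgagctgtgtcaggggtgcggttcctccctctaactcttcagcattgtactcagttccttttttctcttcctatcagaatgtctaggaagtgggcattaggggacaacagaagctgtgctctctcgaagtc

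A further 3 sequences are 101 bases around the strongest summit of the Mrc1 and Cd163 regions furthest upstream among those called in all 4 libraries, and of the Folr2 region with the highest fold enrichment. They lie at chr2:14206919-14207019 (plus strand), chr6:124273414-124273514 (plus) and chr7:101858534-101858634 (minus). Capitals mark a MAF motif (TGCTGAC) near Cd163 and a PU.1 motif (GAGGAAGT) near Folr2.

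Mrc1 upstream: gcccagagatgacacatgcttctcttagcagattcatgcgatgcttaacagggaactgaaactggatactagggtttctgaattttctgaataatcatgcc
Cd163 upstream: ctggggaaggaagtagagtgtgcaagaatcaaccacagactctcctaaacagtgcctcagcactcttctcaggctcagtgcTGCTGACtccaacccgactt
Folr2 upstream: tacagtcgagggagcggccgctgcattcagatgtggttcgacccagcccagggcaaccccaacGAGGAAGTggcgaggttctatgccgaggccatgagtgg

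Of the 63 regions, 17 and 4 were called in control replicates 1 and 3, and 56 and 43 in Cre+ replicates 1 and 2. These are 27.0 and 6.35% in controls and 88.9 and 68.3% in Cre+ LPMs, whereas 52.0 and 21.9%, and 90.7 and 77.2%, of all 70744 regions were called. The share called at the 10 genes was thus below that of all regions in both control libraries and in Cre+ replicate 2. In Cre+ replicate 1 the shares were about equal. The number of regions called did not overlap between the groups, as over all regions (36800 and 15478 in controls, 64159 and 54633 in Cre+ LPMs). At the 10 genes the mean was 49.5 regions per Cre+ library and 10.5 per control library (difference 39.0, two-sided exact permutation test, p = 0.33). With 2 libraries against 2 this is the smallest p a permutation can give. In pooled cells, more cells with an accessible region and more accessibility per cell cannot be told apart.

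**Figure D1:**
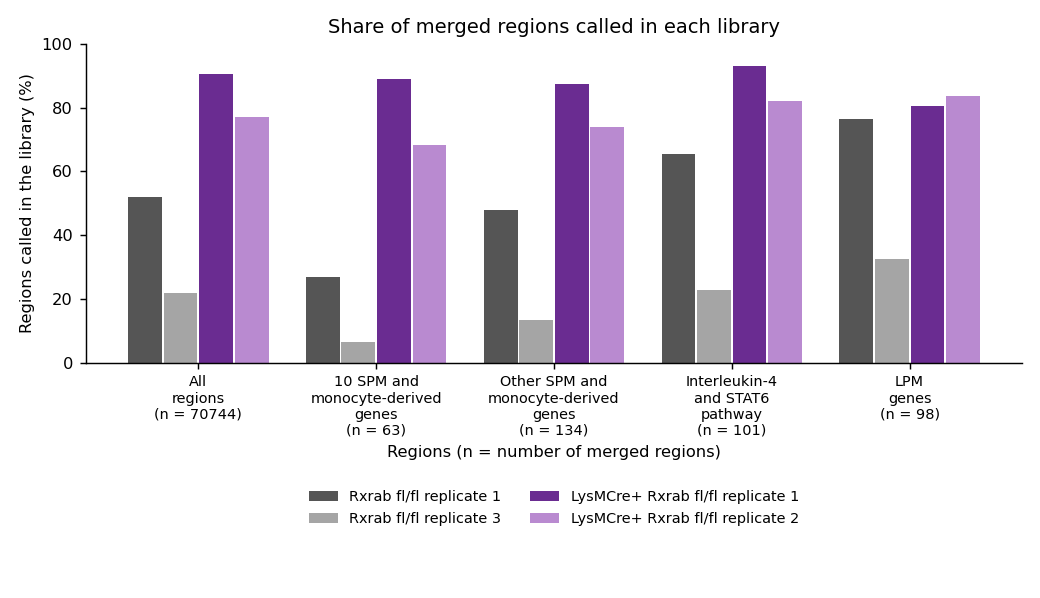
Share of merged regions called in each library (vertical axis, %), for all regions, the regions of the 10 genes and those of other gene lists (n is the number of regions). The 10 genes stand at 27.0 and 6.35% in controls and at 88.9 and 68.3% in Cre+ LPMs, beside 52.0, 21.9, 90.7 and 77.2% of all regions.

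Called in both Cre+ libraries and in no control library were 21 of the 63 regions (33.3%), against 22.8% of all regions. The opposite pattern held for 0 of the 63 and for 0.0452% of all regions. Without control replicate 3 it was again 21 of 63 (33.3%), against 22.9% of all regions, so replicate 1 alone gave the same number. Without control replicate 1 it was 32 of 63 (50.8%), near the 49.2% of all regions. By this measure replicate 3 alone gave no clearly higher share for the 10 genes. Even so, replicate 3 called 6.35% of their regions, against 21.9% of all regions. Without Cre+ replicate 1 it was 27 of the 44 regions still called (61.4%), against 36.4%, and without replicate 2 it was 40 of 57 (70.2%), against 44.3%. A further 25 regions were called in a single Cre+ library alone, 19 of them in replicate 1 (18.3% of all regions) and 6 in replicate 2 (6.68%). Only 4 of the 63 regions (6.35%) were called in all 4 libraries, against 21.5% of all regions.

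Among the 36 regions of these genes called in both Cre+ libraries, 58.3% were called in no control library, against 32.6% of all such regions. At promoter-TSS (from 1 kb before a TSS to 200 bp after it) it was 5 of 9 regions, against 10.1% of all, and outside promoter-TSS 16 of 27, against 39.3%. Among regions at or above the median Cre+ LPMs fold enrichment it was 5 of 13, against 11.0%, and below the median 16 of 23, against 54.2%. Promoters below that median gave 3 of 5, against 30.7%, and promoters at or above it 2 of 4 (Fcrls and Cd209d), against 1.69%. Entry and the median both use the Cre+ libraries, so these shares describe the calls and do not show that the 10 genes differed from regions of equal strength.

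The number of peaks differed between the libraries, so the 16097 peaks of lowest q value were also taken from each library. On these lists the 10 genes kept 7 regions, of which 2 and 4 were called in controls and 6 and 4 in Cre+ LPMs. Only in both Cre+ libraries was 1 of the 7, the Lyve1 promoter, against 7.82% of all regions, and only in both control libraries 0 of the 7, against 7.22%. The 21 regions above, which do not include the Lyve1 promoter, were thus not seen as such among an equal number of the strongest peaks.

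**Figure D2:**
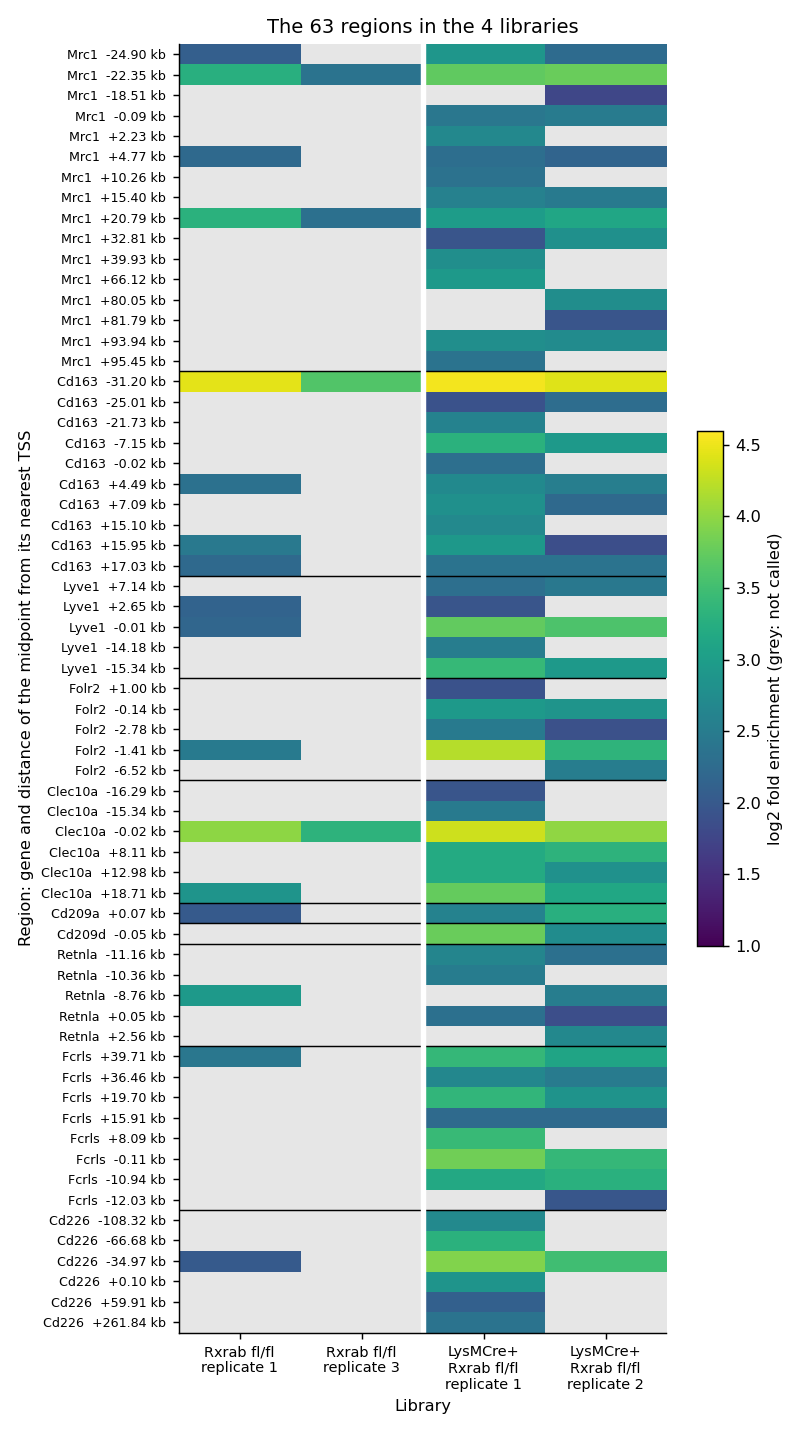
The 63 regions (vertical axis, gene and distance of the midpoint from the TSS) in the 4 libraries (horizontal axis), coloured by log2 fold enrichment at the summit, with grey for regions not called. In controls 17 and 4 regions are coloured and in Cre+ LPMs 56 and 43.

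The start sites themselves showed the same order. All 10 genes had a called promoter, in 3 and 1 cases in controls and in 10 and 8 cases in Cre+ LPMs. Of all genes, 44.3 and 32.6% had a promoter called in controls and 49.9 and 47.5% in Cre+ LPMs. The promoters of Mrc1, Folr2, Cd209d, Retnla and Fcrls were called in both Cre+ libraries and in no control library, 5 of the 10 genes, against 3.30% of all genes (824). All genes include 12319 of 24963 with no promoter called in any library, whereas all 10 had a call. The paper names Mrc1, Cd209d, Retnla and Fcrls among loci more accessible without RXRs in its ATAC-seq data. The share of the 10 genes was thus partly set by their choice and is a description only.

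**Figure D3:**
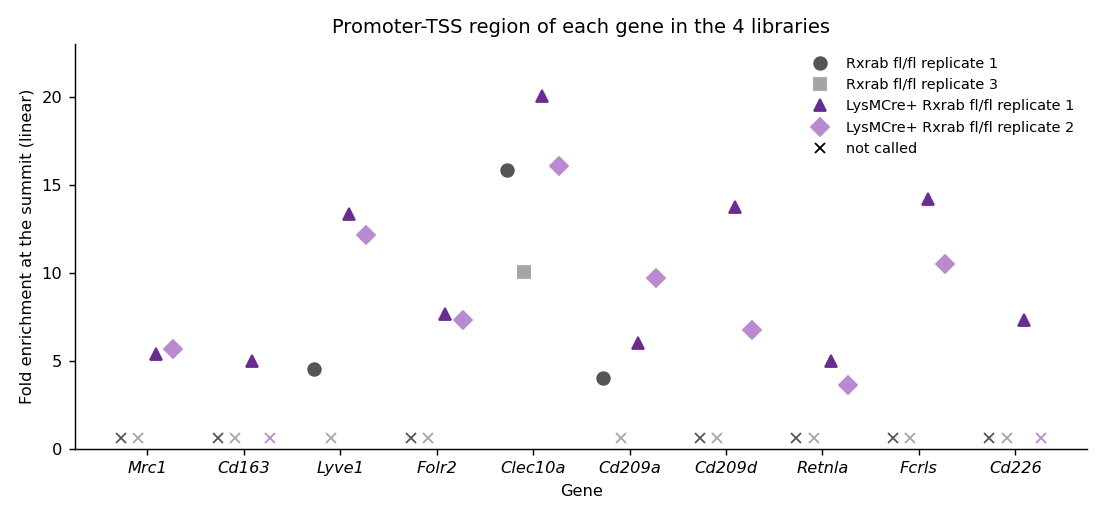
Fold enrichment at the summit of each gene's promoter-TSS region (vertical axis, linear) in the 4 libraries, by gene (horizontal axis). Only Clec10a has a promoter called in all 4 libraries, at 15.8, 10.1, 20.1 and 16.1, 5 genes have points in both Cre+ libraries alone, and Cd163 and Cd226 in Cre+ replicate 1 alone.

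Mrc1 encodes the mannose receptor CD206, which takes up glycoproteins. Its promoter had a fold enrichment of 5.36 and 5.66 in Cre+ LPMs and was not called in controls. Its 16 regions, called in 4 and 2 cases in controls and in 13 and 11 in Cre+ LPMs, run from 24.9 kb upstream, within an intron of Tmem236, to 95.5 kb downstream of the TSS. Of these, 8 lay nearer to a TSS of another gene than to that of Mrc1 and were included because they overlap its gene body. The strongest Mrc1 region, 22.3 kb upstream (chr2:14206790-14207341), was called in all 4 libraries, at 9.64 and 5.17 in controls and at 13.1 and 13.7 in Cre+ LPMs. Both Cre+ values lay above both control values. Control replicate 3 was low across shared regions. Both Cre+ libraries were above control replicate 1 in 44.3% of all regions called in these 3 libraries. Among regions called in all 4, its percentiles within the library were 17.5 and 13.2 in controls and 36.8 and 63.2 in Cre+ LPMs. An intronic region 20.8 kb downstream (chr2:14249879-14250526) was also shared, at 9.83 and 5.05 in controls and at 7.98 and 8.77 in Cre+ LPMs. Here the groups overlapped in fold enrichment. The summits lay 20.894 and 20.979 kb from the TSS in controls and 20.659 and 20.635 kb in Cre+ LPMs, within a region of 648 bp. The control replicate 3 peak was weak, with a pileup of 10. How often summits lie apart in this way among all shared regions was not examined, so no shift between genotypes is shown. Of the 4 Mrc1 regions called only in both Cre+ libraries, which ranged from 3.87 to 7.03, the strongest lay 93.9 kb downstream, at 6.88 and 6.70.

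Cd163 encodes the receptor for complexes of haemoglobin and haptoglobin. Its promoter was called only in Cre+ replicate 1, at 4.97. Its strongest region, and the strongest of all 63, lay 31.2 kb upstream (chr6:124273112-124273791), at 21.9 and 12.3 in controls and at 23.2 and 21.5 in Cre+ LPMs. In each library it stood high among such regions, at percentiles 89.2 and 85.6 in controls and 91.2 and 96.7 in Cre+ LPMs, so this distal region was accessible in both genotypes while the start site was called in 1 library. Of the 10 regions at Cd163, 4 and 1 were called in controls and 10 and 7 in Cre+ LPMs. Of the 3 called only in both Cre+ libraries the strongest lay 7.15 kb upstream, at 9.89 and 7.66. Another 3 regions, within the Cd163 gene body, lay nearest to the TSS of the overlapping gene Gm52877.

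Lyve1 encodes a hyaluronan receptor. Its promoter had 4.55 in control replicate 1, was not called in replicate 3, and had 13.3 and 12.1 in Cre+ LPMs. Both Cre+ values were thus above the single control value by more than they differed from each other. The strongest Lyve1 region lay 15.3 kb upstream, in an intron of Mrvi1, at 10.6 and 7.69 in Cre+ LPMs and with no call in controls. It ranks first by mean log2 fold enrichment over the libraries with a call, although the promoter was higher in both Cre+ libraries. Of its 5 regions, 2 and 0 were called in controls and 5 and 3 in Cre+ LPMs.

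Folr2 encodes folate receptor beta. The promoter whose sequence is shown had 7.65 and 7.29 in Cre+ LPMs and no call in controls. The strongest Folr2 region lay 1.41 kb upstream of another Folr2 start site, in a coding exon of the neighbouring Folr1 (chr7:101858391-101858800), with 5.56 in control replicate 1, no call in replicate 3, and 18.4 and 10.1 in Cre+ LPMs. Of the 5 Folr2 regions this was the only one called in controls, against 4 and 4 regions in Cre+ LPMs.

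**Figure D4:**
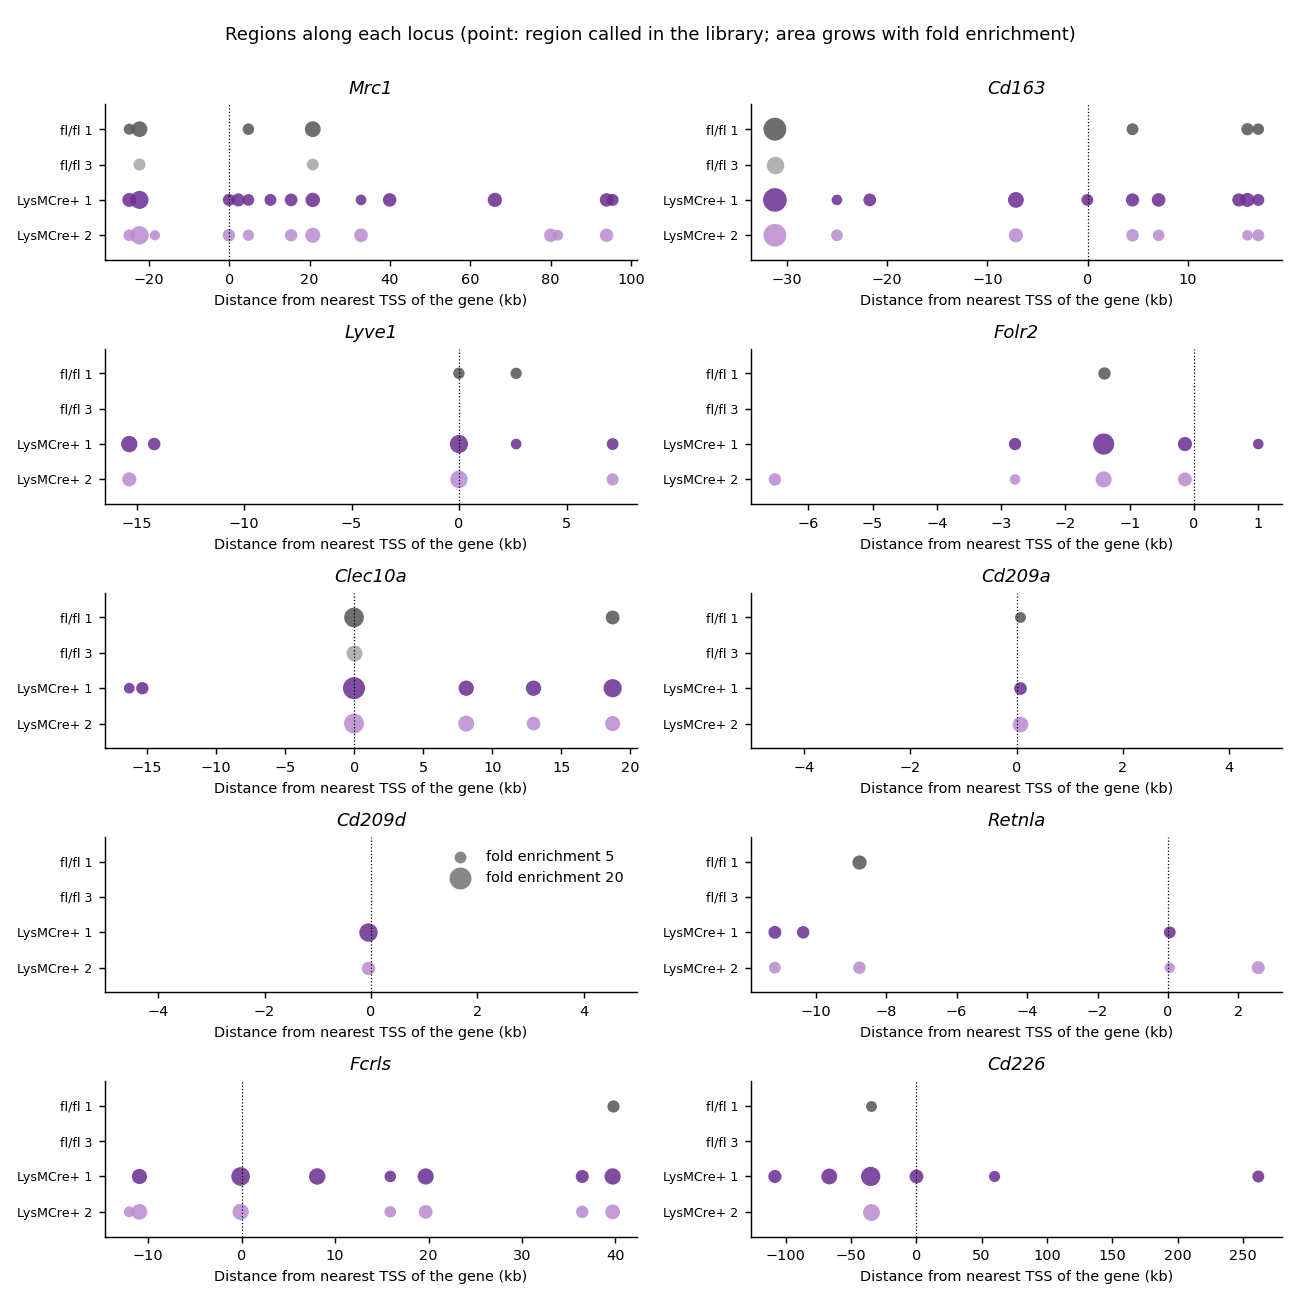
Regions called in each library (1 line per library) by distance of the midpoint from the nearest TSS of the gene in kb (horizontal axis), for the 10 genes, with point area growing with fold enrichment. More regions are marked in the Cre+ libraries than in controls, as at Mrc1 with 13 and 11 against 4 and 2.

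The lectins differed among themselves. Clec10a encodes a lectin for galactose and N-acetylgalactosamine (CD301), and its promoter (chr11:70166183-70167024) was the only promoter of the 10 genes called in all 4 libraries, at 15.8 and 10.1 in controls and at 20.1 and 16.1 in Cre+ LPMs. Its groups did not overlap, yet the gap between them, from 15.8 to 16.1, was smaller than the spread within either genotype. These values are not centred, and control replicate 3 was low across shared regions. Of 6 Clec10a regions, 2 and 1 were called in controls and 6 and 4 in Cre+ LPMs, and the stronger of the 2 called only in both Cre+ libraries lay 8.11 kb downstream, at 9.15 and 10.1.

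Cd209a and Cd209d belong to the family of DC-SIGN, whose lectins bind mannose and fucose, and each had a single region, at its promoter. Cd209a had 4.04 in control replicate 1, no call in replicate 3, and 6.02 and 9.68 in Cre+ LPMs. Cd209d was called in no control library and had 13.8 and 6.73 in Cre+ LPMs, the higher value in replicate 1. These 2 thus had no region beyond their start sites, unlike the other 8 of the 10 genes.

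Retnla encodes RELM alpha, a secreted protein that interleukin-4 induces. Its promoter had the lowest values of the 5 called only in both Cre+ libraries, 5.00 and 3.65. The strongest of its 5 regions, 8.76 kb upstream, was called in 1 library of each genotype, at 7.75 in control replicate 1 and at 5.77 in Cre+ replicate 2. It was the only Retnla region called in controls. The other region called only in both Cre+ libraries lay 11.2 kb upstream, at 6.21 and 5.00.

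Fcrls encodes an Fc receptor-like scavenger receptor, best known from microglia. Its promoter had 14.2 and 10.5 in Cre+ LPMs and no call in controls, the highest value in each Cre+ library among the 5 promoters called only in both libraries of this genotype. Of 8 Fcrls regions, 1 and 0 were called in controls and 7 and 7 in Cre+ LPMs. Fcrls had the most regions called only in both Cre+ libraries, 5, which ranged from 4.73 to 14.2 and lay from 10.9 kb upstream to 36.5 kb downstream of the TSS. The single region with a control call, 39.7 kb downstream, had 5.39 in replicate 1 and 10.5 and 8.57 in Cre+ LPMs.

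Cd226 encodes an adhesion receptor of lymphocytes and of some macrophages. Of its 6 regions, 5 were called only in Cre+ replicate 1, among them the promoter at 7.31 and the strongest by mean log2 fold enrichment, 66.7 kb upstream in a non-coding exon part of Rttn, at 9.89. These 5 rest on 1 library. The region 35.0 kb upstream (chr18:89162144-89162767) was called in 3 libraries, at 4.04 in control replicate 1 and at 15.2 and 11.3 in Cre+ LPMs.

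Differences in strength were tested with limma on log2 fold enrichment in the 15199 regions called in all 4 libraries, with each library centred on its median. A region passed when its log2 fold change was past 1 in size and its adjusted p under 0.05. These p-values measure only the spread between these libraries, which may be technical. Of the 15199 regions, 0.0395% were higher in Cre+ LPMs (6) and 0.0461% lower (7). Beside a limma result, here and below, all regions means all regions tested. Of the 4 regions of these genes, limma called 0, and 1 had an unadjusted p under 0.05, as had 3345 of the 15199 regions (22.0%). The upstream Mrc1 region had a log2 fold change of 0.56 (SE 0.22, adjusted p = 0.167, from 0.0697 to 0.964 over the alternatives), and of 0.25 without control replicate 3. The other 3 were smaller, and each changed sign in at least 1 alternative: the intronic Mrc1 region −0.12 (SE 0.22, adjusted p = 0.781), the upstream Cd163 region 0.08 (SE 0.21, adjusted p = 0.853) and the Clec10a promoter 0.14 (SE 0.21, adjusted p = 0.720). Without control replicate 3 the Cd163 value was −0.20 and the Clec10a value −0.05. On the pileup at the summit 2.87% of 14415 regions were higher and 4.58% lower, again with 0 of the 4. The largest values there were 0.70 at the upstream Mrc1 region (adjusted p = 0.0919) and 0.65 at the Clec10a promoter (adjusted p = 0.102).

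The test in all 4 libraries reaches 4 of the 63 regions, since a region must be called in replicate 3 to enter. With regions called in at least 3 libraries, where a library without a call was left out of that region's fit, 15 regions of these genes entered, and the median log2 fold change of all 33385 regions was 0.20. Of these 15, 3 passed as higher in Cre+ LPMs, against 8.14% of all regions (2719), and 0 as lower, against 0.371% (124), whereas 6 and 7 passed in all 4 libraries. The Cd226 region 35.0 kb upstream had a log2 fold change of 1.80 (SE 0.28, adjusted p = 0.00616), the Lyve1 promoter 1.59 (SE 0.28, adjusted p = 0.00820) and the Folr2 region in Folr1 1.40 (SE 0.31, adjusted p = 0.0142). In each of the 3 the fit had 1 control value, from replicate 1, against 2, and this value is assumed to vary like the others. They entered through calls in both Cre+ libraries while the missing call of replicate 3 was dropped, and with this entry higher regions outnumbered lower ones among all regions too, so the 3 do not show a difference between the genotypes. The Cd209a promoter had 1.02 (adjusted p = 0.0774) and the Fcrls region 39.7 kb downstream 0.93 (adjusted p = 0.0451), under the fold threshold.

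With control replicate 3 left out, 2 of 15 regions were higher, against 2.28% of all regions, and 0 lower, against 1.28%. They were the Lyve1 promoter (log2 fold change 1.26, adjusted p = 0.0320) and the Cd226 region (1.47, adjusted p = 0.0252), while the Folr2 region had 1.07 (adjusted p = 0.0522). With 1 control library against 2, these values too are a description. By fold enrichment alone, both Cre+ libraries were above control replicate 1 in 11 of the 15 regions called in these 3 libraries, against 44.3% of all such regions, and both below it in 1, against 27.1%. This comparison with replicate 1 was chosen after the values were seen.

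The regions shared other features. By position, 28 of the 63 were intronic, 20 intergenic, 11 promoter-TSS, 3 in coding exons and 1 in a non-coding exon part. Promoters made up 17.5% of them and 18.1% of all regions, and the median distance to the nearest TSS of any gene was 10.4 and 12.4 kb. The regions were narrower than all regions, with a median width of 332 against 383 bp, and poorer in G and C, with a median of 47.3 against 51.7%. They were also weaker, with a median Cre+ LPMs fold enrichment of 7.66 against 8.85 among regions called in both Cre+ libraries.

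Motifs were searched on both strands within 100 bp of each region's strongest summit. The STAT6 motif was found in 7 of 63 regions, 4 at Mrc1, 2 at Retnla and 1 at the Cd209a promoter, and in 4.58% of all regions. AP-1 was found in 11 regions at 6 of the genes, against 12.7% of all regions, and C/EBP in 9 regions at 6 genes, against 11.1%. MAF was found in 6, against 5.73%, and PU.1, named for a factor that macrophages depend on, in 3 at Cd163 and Folr2, against 9.30%. GATA, spelled AGATAA, was found in 5, against 6.44%. The half-site AGGTCA was found in 10, against 13.1%, and pairs of it with 1 or 5 bases between in 0, against 0.0283 and 0.0226%. In the 150 bases before the start site, 7 of the 10 genes could be read, and Lyve1, Clec10a and Cd226 had no entry. There the promoter of Retnla held STAT6, C/EBP, MAF and half-site motifs, which 3.17, 5.46, 2.47 and 8.58% of all 32851 promoters hold, and that of Folr2 an AP-1 motif, as in 4.24%. PU.1 (1.63% of all promoters), GATA (5.65%) and pairs of half-sites with 1 or 5 bases between (0.0304 and 0.00304%) were found in 0 of them. Such matches describe the letters of the windows only.

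Other genes of SPMs and monocyte-derived cells were followed as a list of 19, with 134 regions. Of these regions 47.8 and 13.4% were called in controls and 87.3 and 73.9% in Cre+ LPMs, and 31 of the 87 called in both Cre+ libraries (35.6%) were called in no control library, near the 32.6% of all regions. At start sites this list resembled the 10 genes more: promoters of 9 and 5 of the 19 genes were called in controls and of 16 and 13 in Cre+ LPMs, and 4 (21.1%), those of Cx3cr1, Ciita, Cd209b and Cd209g, only in both Cre+ libraries, against 3.30% of all genes. Limma called 0 of the 17 regions of this list tested, of which 5 had an unadjusted p under 0.05 (29.4%, against 22.0% of all regions). On the pileup 0 of 17 were higher and 1 lower, against 2.87 and 4.58% of all regions. The promoter of Ms4a7, which encodes a membrane protein of macrophages, had 8.42 and 6.47 in controls and 22.2 and 17.8 in Cre+ LPMs (log2 fold change 1.06, adjusted p = 0.0629 from limma). That of Mgl2, a close relative of Clec10a, had 13.8 and 5.88 against 18.0 and 17.1 (0.59, adjusted p = 0.149). At these 2 promoters the Cre+ values lay above both control values, which did not hold across the list. Among all regions called in control replicate 1 and both Cre+ libraries, 44.3% had both Cre+ values above replicate 1. The promoters of H2-Aa and Maf had log2 fold changes of −0.16 and −0.08 (adjusted p = 0.682 and 0.848 from limma). Promoters without a call in control replicate 3 alone went both ways. That of Cd74 had 6.15 in control replicate 1 and 4.17 and 3.78 in Cre+ LPMs. Clec4b1 had 4.38 against 11.0 and 7.94, H2-Ab1 6.11 against 6.93 and 6.86, and H2-Eb1 8.64 against 7.88 and 8.93. The median log2 fold change of the list was 0.02, against −0.09 for all regions called in all 4 libraries.

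The interleukin-4 and STAT6 pathway, which controls several of the 10 genes, was followed at 11 of its 13 genes, as Il13ra1 and Il2rg lie on a chromosome the peak lists leave out. Of its 101 regions 65.3 and 22.8% were called in controls and 93.1 and 82.2% in Cre+ LPMs. Of those called in both Cre+ libraries, 15 of 78 (19.2%) had no control call, against 32.6% of all such regions. Limma called 0 of its 23 regions tested, of which 5 had an unadjusted p under 0.05 (21.7%, against 22.0% of all regions). On the pileup 1 of 22 was higher and 1 lower, against 2.87 and 4.58% of all regions. The calls of the LPM list differed less between the genotypes, with 76.5 and 32.7% of its 98 regions called in controls and 80.6 and 83.7% in Cre+ LPMs. Of its 69 regions called in both Cre+ libraries, 7 (10.1%) had no control call, against 21 of 36 at the 10 genes and 32.6% of all such regions. LPM regions were called more often in controls than all regions were (52.0 and 21.9%), so these shares do not compare regions of equal strength. On the pileup limma found 5 lower and 0 higher of 32 LPM regions tested, against 4.58 and 2.87% of all regions. On fold enrichment it called 0 of the 32, with 8 at an unadjusted p under 0.05 (25.0%, against 22.0% of all regions).

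Regions at markers of other cells in the peritoneal cavity were also called more often in Cre+ LPMs, as were all regions (52.0 and 21.9% in controls, 90.7 and 77.2% in Cre+ LPMs). Dendritic cell genes had 12 and 5 of 29 regions called in controls (41.4 and 17.2%) and 26 and 22 in Cre+ LPMs (89.7 and 75.9%), close to the shares of all regions, with the strongest at Batf3 (17.7 and 6.69 against 20.7 and 16.3). B cell genes had 3 and 0 of 10 against 9 and 6, with 0 regions at Cd79a and the strongest at Cd79b. T cell genes had 2 and 1 of 5 against 5 and 3, with 0 at Cd3g and the strongest at Cd3d, and mast cell genes 0 and 0 of 3 against 3 and 1, with 0 at Cpa3, Fcer1a and Cma1 and the strongest at Tpsb2. Some defining genes of these cells had no call in any library, whereas others, such as Pax5, Ebf1 and Flt3, had calls. The Ebf1 promoter had 11.7 in control replicate 1 and 12.0 and 10.4 in Cre+ LPMs. The Flt3 promoter had 9.51 in control replicate 1 and 18.9 and 10.3 in Cre+ LPMs. Of all regions called in both Cre+ libraries, 32.6% had no control call. The number was 7 of 19 at dendritic cell genes, 2 of 5 at B cell genes, 1 of 3 at T cell genes and 1 of 1 at mast cell genes. Neutrophil genes had 5 and 1 of 11 against 9 and 8, with the strongest at S100a8 (14.0 in control replicate 1, 16.6 and 16.1 in Cre+ LPMs). Eosinophil genes had 7 and 3 of 11 against 10 and 10, with 0 at Epx and the strongest at Ccr3, and mesothelial genes 1 and 1 of 8 against 7 and 7, with 0 at Wt1 and the strongest at Upk3b. No control call was found at 2 of 6 neutrophil, 3 of 9 eosinophil and 5 of 6 mesothelial regions called in both Cre+ libraries, so the mesothelial share (83.3%) was above that of the 10 genes (58.3%). Limma called 0 of the 11 regions of these 7 lists tested, of which 4 had an unadjusted p under 0.05, against 22.0% of all regions. On the pileup 1 was higher, at a mesothelial gene, and 0 lower, against 2.87 and 4.58% of all regions. The part of other cell types in the calls at the 10 genes was not tested.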

How the data were processed

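ATAC-seq peak lists of 4 libraries of LPMs were used, 2 of Rxrab fl/fl (controls) and 2 of LysMCre+ Rxrab fl/fl (Cre+). Per the submitters' processing notes, reads were trimmed with cutadapt 1.7, aligned to mm10 with Bowtie2 (given as 4.1.2), filtered with SAMtools 0.1.18, and peaks were called in each library with MACS2 2.1.1 and filtered with bedtools 2.24.0. Regions were then compared with DiffBind 2.6.6 and edgeR 3.20.9 and annotated with HOMER 4.10.3. In the deposited lists the fold enrichment is a ratio to the local background, and the deposited p and q values are given as −log10 p and −log10 of the q value. The deposited integer score was not used, and the deposited offset of the summit, another kind of value, placed it.

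Read counts were not analysed here, so limma 3.58.1 (R 4.3.3) on log2 fold enrichment stands in for the study's count test, fitted over all regions with Benjamini-Hochberg adjustment. The pileup of tags was solved from fold enrichment and p value with the pseudocount of 1 of MACS2, for 98.2 and 100% of peaks in controls and 99.3 and 99.9% in Cre+ LPMs. If the mouse genome preset of MACS2 was used, the lowest backgrounds correspond to 18.4 and 9.92 M tags in controls and 12.4 and 10.1 M in Cre+ LPMs. Solving, limma and motif matching were tested on simulated data. Regions were placed on 43783 RefSeq transcripts of GRCm38.p6, with Python 3.11.15 and its packages pandas 2.3.3, numpy 2.4.6, pysam 0.24.0, scipy 1.17.1 and matplotlib 3.10.9.

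For each of the 10 genes the text names its promoter-TSS region, its strongest region (by mean log2 fold enrichment where called), each region called in all 4 libraries and the strongest called only in both Cre+ libraries. Other regions, and the genes named from lists, were chosen after their values were seen. The 10 genes and the lists were chosen with earlier results of these data known. The alternatives were the summit pileup, no centring, quantile normalization, a mean-variance trend, regions called in at least 3 libraries, calls by adjusted p alone, a q value of 0.01, summits widened by 100 bp on each side in place of peaks, an equal number of peaks, each library left out, NM transcripts alone, and gene bodies with 10 kb either side. Sex chromosomes carry no peaks in these lists. A marker gene of the lists is not reported here.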

Additional observations from a re-analysis of the deposited data

How the results depend on the processing

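With 2 libraries per genotype and 1 of them weak, 4 of the 63 regions were tested in all 4 libraries, and a region without a call has no value in the lists. No paired analysis was possible because the genotypes share only replicate number 1. Where a library was left out, the lone library of its genotype was assumed to vary like the others.

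Of 61 values for counts and shares, 35 stayed the same under the alternatives (counts within 1.5 times, shares within their 95% interval), and 36 of 43 for single regions kept their direction and side of the threshold. Against 6 regions higher and 7 lower, the pileup gave 413 and 660, no centring 0 and 0, quantile normalization 9 and 2, regions called in at least 3 libraries 2719 and 124, and a mean-variance trend 61 and 76. Leaving out each library gave 3 to 757 higher and 9 to 543 lower. The regions of the 10 genes called by limma were 3 with at least 3 libraries and 0 to 2 with a library left out, and 0 otherwise.

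The 21 regions called only in both Cre+ libraries were 1 with an equal number of peaks and 21 to 40 with a library left out, and the 22.8% of all regions were 21.3% with peaks reduced to summits, 7.82% with an equal number and 22.9 to 49.2% with a library left out. With peaks reduced to summits, 1 region was called only in both control libraries, the intronic Mrc1 region, which then split and gave no log2 fold change. The count was 25 of 69 regions with NM transcripts alone (36.2%) and 23 of 53 with gene bodies and 10 kb either side (43.4%), against 21 of 63 (33.3%).

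Without centring, which shifts log2 fold changes by 0.37, the intronic Mrc1 region had 0.25, and with quantile normalization 0.012, against −0.12. With a library left out it ranged from −0.46 to 0.12. With a library left out the Clec10a promoter also ranged from −0.045 to 0.15, negative without either control library in turn, and the upstream Cd163 region from −0.20 to 0.19, negative without control replicate 3 and without Cre+ replicate 2. The upstream Mrc1 region had 0.25 without control replicate 3. Over all alternatives the Clec10a promoter ranged from −0.045 to 0.65, the upstream Cd163 region from −0.20 to 0.45 and the upstream Mrc1 region from 0.25 to 0.93. The cause of these differences was not tested.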
